A study of Mus musculus with 20 samples.

Results

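The 8 genes described here, Tjp1, Ocln, Cldn4, Cldn6, Cldn7, F11r, Cgn and Atp1b1, encode tight junction proteins and a Na+/K+-ATPase subunit used in blastocyst cavitation. They were chosen by mouse symbol from the 34937 genes counted in single 8C embryos. The rule itself uses no measured value. Each symbol matched 1 Ensembl gene, and all 8 genes passed the filter on low counts, which kept 11754 genes for testing. The embryos were collected at E2.5 from natural matings on a mixed background, and the question was how loss of maternal G9a, the histone H3 lysine 9 methyltransferase encoded by Ehmt2, changes the RNA of the cleavage-stage embryo. The 9 Ehmt2Cntr embryos came from Ehmt2F/+ mothers and the 10 Ehmt2Mat embryos from Ehmt2F/- mothers. All mothers carried Zp3-Cre, which is active in the growing oocyte and recombines the conditional Ehmt2F allele there. Among the Ehmt2Cntr embryos, 6 had the zygotic genotype +/+ and 3 had +/-. Among the Ehmt2Mat embryos, 5 were -/- and so lacked a functional copy altogether (Ehmt2M/Z), and 5 were +/- with 1 copy from the father (Ehmt2M/+). Single embryos are called controls (Ehmt2Cntr) and mutants (Ehmt2Mat) by their number. Only morphologically normal embryos had been taken, and the zona pellucida was removed before lysis. The records name neither mother nor litter, so the maternal genotype cannot be told apart from differences between mothers, and the p-values measure the spread between these embryos.

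Tight junctions seal the space between neighbouring epithelial cells. Occludin and the claudins form the strands in the membrane, the junctional adhesion molecule F11r (JAM-A) sits beside them, and the cytoplasmic proteins Tjp1 (ZO-1) and Cgn (cingulin) tie them to the actin cytoskeleton. In the mouse embryo the junction is put together stepwise from compaction onwards in the outer cells. The Na+/K+-ATPase, an alpha and a beta subunit, then drives ions across the sealed outer layer and water follows through aquaporins, which opens the blastocyst cavity. At the 8C stage this machinery is at the start of its assembly.

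Total counts were between 8231646 and 30602434 per embryo, so that 3 counts corresponded to between 0.0908 and 0.359 CPM, the count scaled to the TMM-adjusted library total. All 8 cleavage-stage markers, among them Pou5f1, Dppa3 and Zp3, passed the filter on low counts. Their levels were not all alike between the groups, since 3 of the 8 were higher in Ehmt2Mat embryos at an edgeR adjusted p under 0.05. These were Oosp1 (log2 fold change 2.70, SE 0.54), Klf17 (1.58, SE 0.40) and Tfap2c (0.75, SE 0.20). Over all genes tested 4.37% were called as higher. Ehmt2 itself had 141 CPM ± 59.5 (SD, n = 9) in Ehmt2Cntr embryos, against 102 CPM ± 32.3 (SD, n = 10) in Ehmt2Mat (log2 fold change -0.47, SE 0.24, edgeR adjusted p = 0.233). Counts were made over all exons of the gene and do not resolve the recombined part, so this level does not check the genotypes. Markers of oviduct epithelium, the tissue around embryos of this stage, were also read. Their summed level over 7 genes (Epcam, which the embryo expresses, left out) was between 0.0901 and 423 CPM in Ehmt2Cntr, with a median of 2.56 CPM, and between 9.82 and 2980 CPM in Ehmt2Mat embryos, with a median of 114 CPM. All 7 markers reached 3 counts in control 10 and in mutants 1 to 4, the 5 embryos with over 300 CPM of Ovgp1, the oviductal glycoprotein gene. Of 9 cumulus cell markers (Nr5a2 left out), the sum was at most 5.0 CPM in Ehmt2Cntr and 39.6 CPM in Ehmt2Mat embryos. Results are therefore also given without those 5 embryos, which left 8 Ehmt2Cntr and 6 Ehmt2Mat embryos. This did not even out the marker, since Ovgp1 was still between 9.57 and 129 CPM in these 6 and between 0.0451 and 29.6 CPM in the 8.

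The sequences upstream of 3 members are shown, chosen as follows, and no expression result rests on them. Ocln was the only member past the test, Cldn4 had the widest spread among Ehmt2Mat embryos, and Cldn7 had the only match to a TEAD motif. Each is the 250 bases before a RefSeq start on GRCm38.p6, 5′ to 3′ on the strand of the gene, and capitals mark motif matches on either strand.
Ocln (chr13:100552719-100552968, minus strand): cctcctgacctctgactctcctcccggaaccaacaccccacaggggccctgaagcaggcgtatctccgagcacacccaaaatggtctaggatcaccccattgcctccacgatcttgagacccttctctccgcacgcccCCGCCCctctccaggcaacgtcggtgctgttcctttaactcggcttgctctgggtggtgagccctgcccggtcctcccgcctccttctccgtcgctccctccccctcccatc
Cldn4 (chr5:134946935-134947184, minus strand): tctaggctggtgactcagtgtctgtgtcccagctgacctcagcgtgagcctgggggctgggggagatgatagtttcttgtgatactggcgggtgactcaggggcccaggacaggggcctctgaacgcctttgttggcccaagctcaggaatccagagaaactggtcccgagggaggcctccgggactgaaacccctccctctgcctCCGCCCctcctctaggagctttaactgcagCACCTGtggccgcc
Cldn7 (chr11:69964529-69964778, plus strand): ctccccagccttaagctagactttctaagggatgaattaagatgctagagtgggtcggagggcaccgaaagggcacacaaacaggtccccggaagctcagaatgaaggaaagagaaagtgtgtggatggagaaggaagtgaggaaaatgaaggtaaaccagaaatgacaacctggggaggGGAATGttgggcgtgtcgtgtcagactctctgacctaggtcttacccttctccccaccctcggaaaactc
The motifs searched were GCCNNNGGC for TFAP2 factors, GGAATG for TEAD factors, CCGCCC for the GC box that SP and KLF factors read, AACCNGTT for grainyhead-like factors and CAGGTG for the E-box of Snail-type repressors. The capitals in the Ocln window are a GC box. Those in the Cldn4 window are a GC box and, nearer the start, an E-box on the opposite strand. The capitals in the Cldn7 window are the TEAD motif. RefSeq gave 10 windows for the 8 members, with another start each for Ocln and Cldn7. GC boxes were found in 9 of these 10 windows and in 32.7% of all 32851 windows of the same length, and E-boxes in 5 of 10 against 17.2%. The TFAP2 motif was in 1 of 10 windows (the other Ocln start, where it overlaps a GC box) against 13.7%, the TEAD motif in 1 of 10 against 12.6%, and the grainyhead-like motif in 1 of 10 (Cgn) against 1.79%. These are matches of letters and do not show that a factor binds there.

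In Ehmt2Cntr embryos the members' levels per length of exon differed widely. On the RPKM scale, the mean level was highest for F11r with 122 ± 47.1 (SD, n = 9), followed by Cldn4 with 77.3 ± 38.3 and Cldn7 with 67.5 ± 54.4. Ocln (14.5 ± 10.7), Tjp1 (12.8 ± 9.46), Cldn6 (10.3 ± 11.5) and Atp1b1 (7.79 ± 6.45) lay close together, and Cgn was lowest with 2.83 ± 1.88 RPKM. The neighbours from Ocln to Atp1b1 in this order, and the pair Cldn4 and Cldn7, were closer to each other than their SD. The 3′ bias of the amplified cDNA makes levels of long and short transcripts only roughly comparable, since reads come mainly from the end of each transcript.

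Between the maternal groups, 1 of the 8 members passed the test and it was lower in Ehmt2Mat embryos. Ocln, the occludin of the junction strands, fell 2.98-fold, while F11r had the largest fold change in the other direction, 1.58-fold higher, without passing the test. The same test (edgeR's quasi-likelihood test, Benjamini-Hochberg adjusted p under 0.05) called 9.35% of the 11754 genes, 4.98% as lower and 4.37% as higher, so 1 of 8 is near the share among all genes. At an unadjusted p under 0.05, 3 of the 8 members (Ocln, Cldn7 and F11r) were past the threshold, beside 23.3% of all genes. The median log2 fold change of the 8 members was -0.69, and that of all genes tested was -0.0426, with 5 members below 0 and 3 above.

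**Figure D1:**
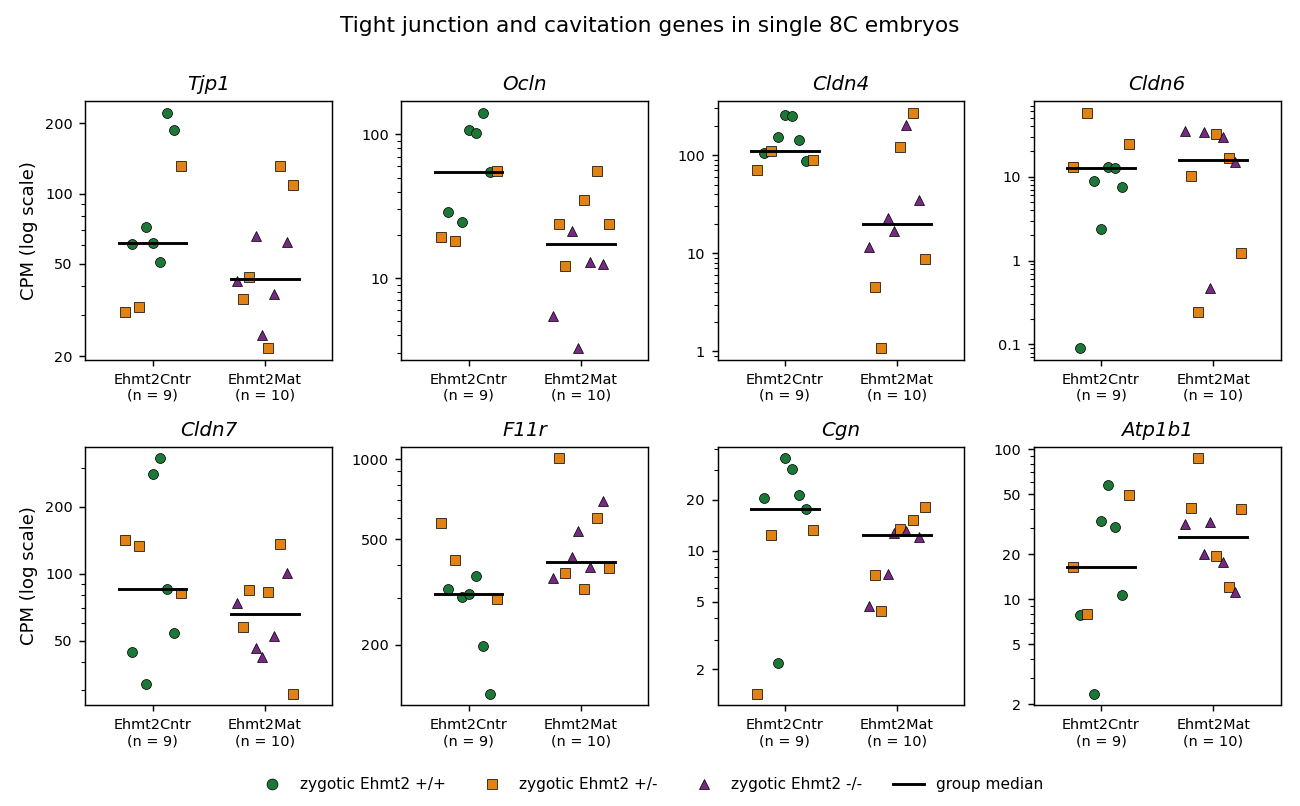
Level of each of the 8 genes in every embryo, in CPM on a log axis. Colours and shapes give the zygotic Ehmt2 genotype and the horizontal line is the group median. The groups overlap for every gene. Ocln has 5 Ehmt2Mat embryos below every Ehmt2Cntr embryo, Cldn4 has 7, and all 10 Ehmt2Mat embryos lie above the Ehmt2Cntr median of F11r.

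Ocln (ENSMUSG00000021638, chr13:100496507-100552718 on GRCm38, minus strand) ranged from 18.1 to 141 CPM in Ehmt2Cntr embryos, with a median of 55.0 CPM. In Ehmt2Mat embryos it ranged from 3.25 to 55.3 CPM, with a median of 17.2 CPM. The groups overlapped, but 5 Ehmt2Mat embryos were below every Ehmt2Cntr embryo, 4 Ehmt2Cntr embryos were above every Ehmt2Mat embryo, and 9 of 10 Ehmt2Mat embryos were below the Ehmt2Cntr median. The mean was 61.3 CPM ± 45.0 (SD, n = 9) in Ehmt2Cntr embryos, against 20.5 CPM ± 15.5 (SD, n = 10) in Ehmt2Mat. Ocln fell by 1.58 on the log2 scale (SE 0.47, edgeR adjusted p = 0.0338). An exact permutation test over all 92378 splits of the embryos, two-sided and on log2(CPM + 1), gave a difference of -1.52 and p = 0.0083. In whole embryos, fewer cells with a transcript and less of it per cell cannot be told apart.

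The call of Ocln depended on single embryos and on depth. With the log2 total count as a covariate its log2 fold change was -1.39 (SE 0.45, edgeR adjusted p = 0.0523), when 8.78% of all genes were called. Its adjusted p was 0.067 without control 6, 0.067 without control 7 and 0.0853 without control 8, the 3 embryos with the highest Ocln levels (107, 102 and 141 CPM). It was between 0.051 and 0.0575 without mutant 1, 3, 4, 7 or 9, and it remained under 0.05 in the other 11 cases. Over all 19 omissions the log2 fold change stayed between -1.87 and -1.32. Controls 6, 7 and 8 were also the only controls with at least 3 counts of Cdx2, the trophectoderm transcription factor gene, at 12.5, 33.0 and 7.97 CPM, and among the mutants only mutant 10 had as many counts, at 1.55 CPM. Gata3, read here as another regulator of trophectoderm and epithelial genes, had 16.9, 33.1 and 0.0381 CPM in controls 6, 7 and 8. In control 3, which had the lowest Ocln level of the controls, Gata3 was at 22.0 CPM. Both genes were singled out after their values were seen, and their part in the Ocln result was not tested. Without the 5 embryos above 300 CPM of Ovgp1, Ocln had a log2 fold change of -1.38 (SE 0.59, edgeR adjusted p = 0.216), when 3.98% of all genes were called.

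**Figure D2:**
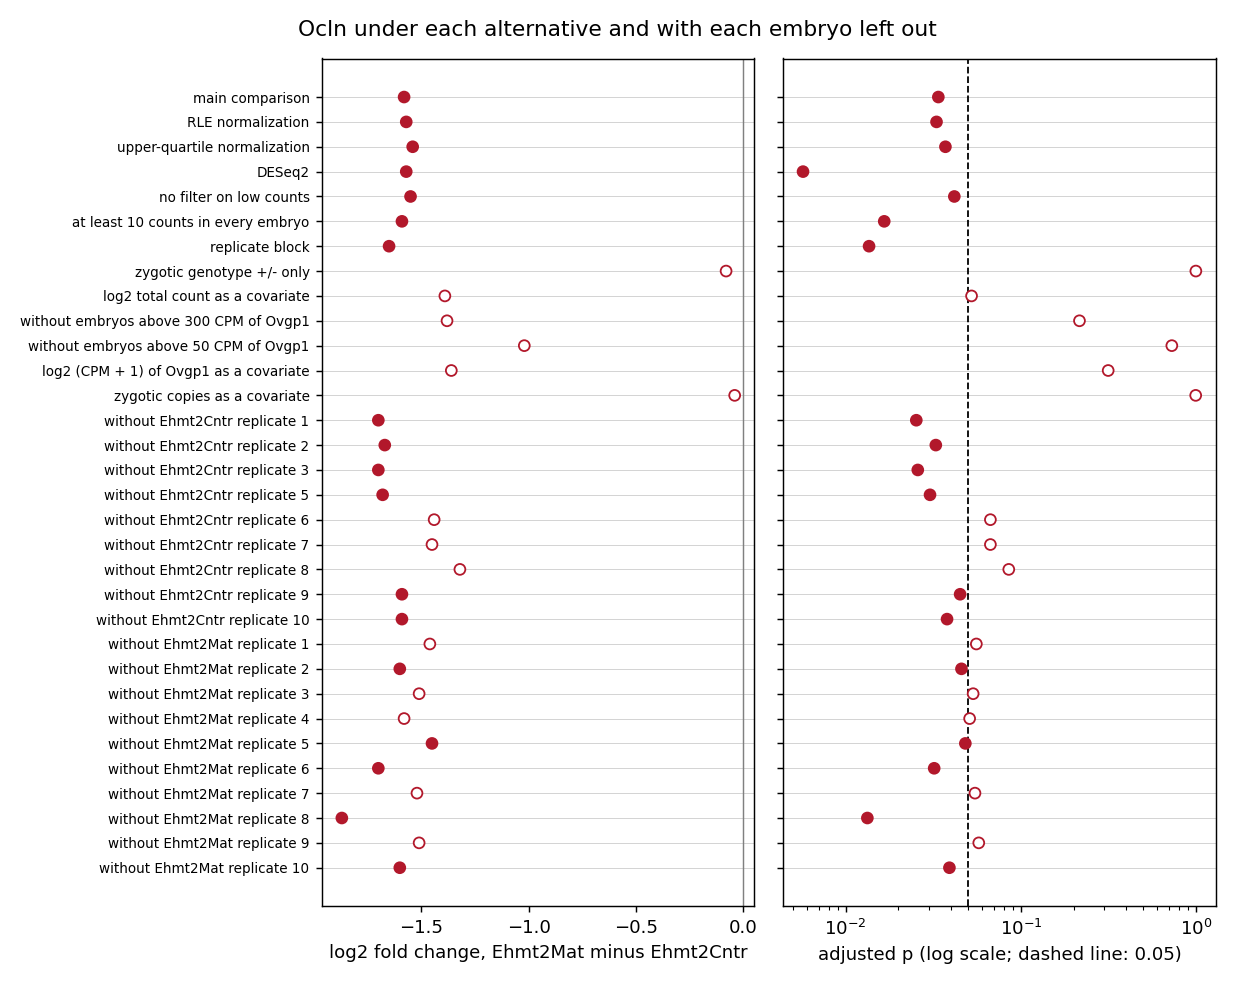
Ocln under each alternative and with each embryo left out. The left panel shows the log2 fold change and the right panel the adjusted p on a log axis, with filled points under 0.05. The fold change stays below -1 in all but 2 fits, those that hold the zygotic genotype constant, where it is -0.08 and -0.04.

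Mean Ocln levels also differed between the zygotic genotypes, without passing the test. In Ehmt2Cntr embryos the 6 with the genotype +/+ had 29.0, 24.6, 107, 102, 141 and 55.0 CPM, a mean of 76.4 ± 47.3 (SD), and the 3 with +/- had 19.4, 18.1 and 55.9 CPM, a mean of 31.1 ± 21.4. Among the Ehmt2Mat embryos the 5 Ehmt2M/+ had 23.6, 12.2, 35.0, 55.3 and 23.7 CPM (mean 30.0 ± 16.3), and the 5 Ehmt2M/Z had 5.45, 21.4, 3.25, 12.9 and 12.6 CPM (mean 11.1 ± 7.16). The means of the +/- embryos of both maternal groups were thus about the same, above Ehmt2M/Z and below +/+. The mean of the 3 +/- controls rests in part on control 10, at 55.9 CPM, which had 369 CPM of Ovgp1. The other +/- controls were at 19.4 and 18.1 CPM. Neither step passed the test, with a log2 fold change of -1.27 (SE 0.62, unadjusted p = 0.0596) for +/- against +/+ in Ehmt2Cntr and -1.43 (SE 0.55, unadjusted p = 0.0207) for -/- against +/- in Ehmt2Mat, both with an edgeR adjusted p of 1.0. No member passed either of these tests. Nor did any gene in edgeR (0.0% of 12195 and of 12646 genes called), where 2.21% and 4.52% had an unadjusted p under 0.05 and DESeq2 called 3 genes in each comparison, none of them a member. Other members with an unadjusted p under 0.05 in these comparisons were Cldn4 (-0.86, SE 0.38, p = 0.0418 by edgeR) and Cldn6 (2.12, SE 0.94, p = 0.0415 by edgeR), both for +/- against +/+ controls.

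Between Ehmt2M/+ and +/- Ehmt2Cntr embryos alone, 5 against 3, the log2 fold change of Ocln was -0.08 (SE 0.59, edgeR adjusted p = 0.997). In a fit with the number of functional zygotic copies (0, 1 or 2) beside the maternal group it was -0.04 (SE 0.60, edgeR adjusted p = 0.995), and the copy number term was 1.37 per copy (SE 0.41, unadjusted p = 0.00307, adjusted p = 1). In this fit Ocln had the smallest unadjusted p of the copy number term among the 8 members. For that term 0 of 11754 genes were called, and 345 had an edgeR unadjusted p under 0.05. Both comparisons of the maternal groups share their embryos with the main one, and no +/+ or -/- genotype occurs in both groups. For the maternal group, 0.00746% and 0.0255% of all genes (1 and 3 genes) were called in these fits. For these embryos the maternal and zygotic genotypes can be separated only through the +/- embryos.

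**Figure D3:**
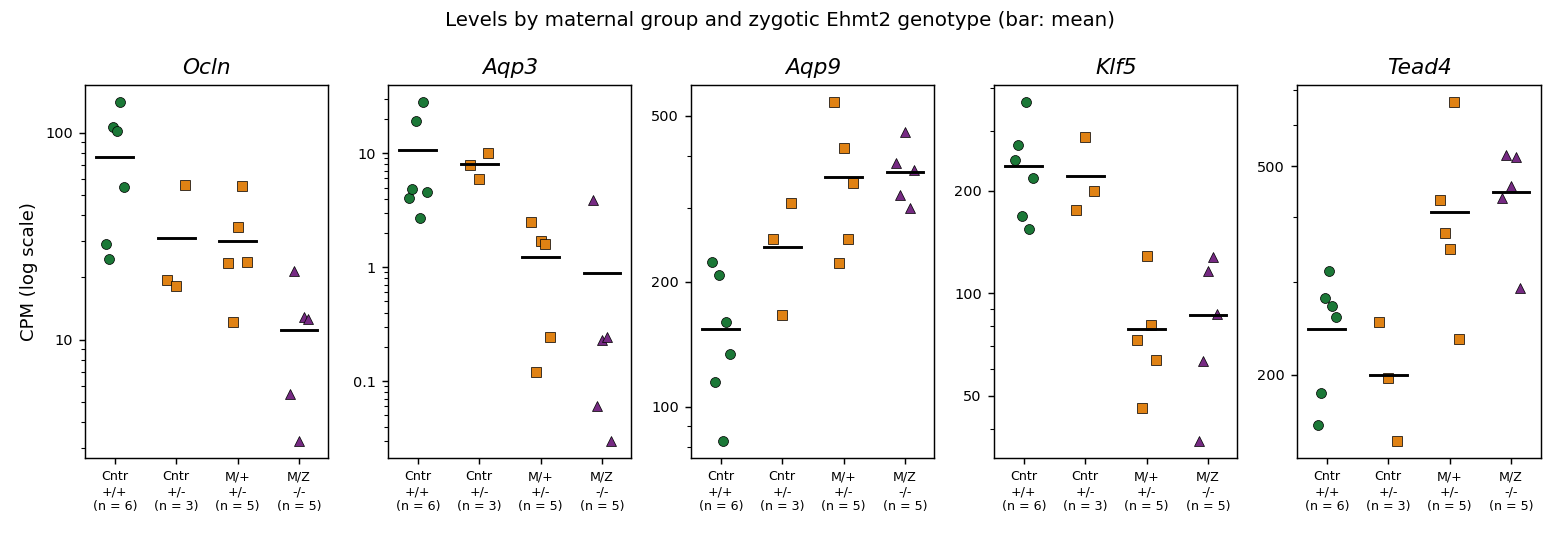
Levels of Ocln and of 4 genes of the wider pathway by maternal group and zygotic genotype, in CPM on a log axis, with the mean as a bar (Cntr, Ehmt2Cntr). The Ehmt2M/Z embryo without any Aqp3 count is drawn at the bottom of its panel. The +/- embryos of both maternal groups lie at similar levels of Ocln, while for Klf5 the highest Ehmt2Mat embryo (129 CPM) is below the lowest Ehmt2Cntr embryo (155 CPM) whatever the zygotic genotype.

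Of the 3 claudins, none passed the test, and they differed in their spread. Claudins set which ions pass the junction, and Cldn4, Cldn6 and Cldn7 are typical of tight epithelia and of the trophectoderm. Cldn4 (ENSMUSG00000047501, chr5:134945119-134946934, minus strand) ranged from 70.3 to 258 CPM in Ehmt2Cntr, a 3.67-fold range with a median of 110 CPM. In Ehmt2Mat embryos it ranged from 1.08 to 269.5 CPM, a 250-fold range with a median of 19.9 CPM. Here 7 of 10 Ehmt2Mat embryos were below every Ehmt2Cntr embryo, between 1.08 and 34.8 CPM, while mutants 6, 7 and 8 had 122, 202 and 269.5 CPM, and mutant 8 was above every control. On the log2(CPM + 1) scale the SD was 0.66 in Ehmt2Cntr and 2.29 in Ehmt2Mat embryos. The mean was 140 CPM ± 69.5 (SD, n = 9) against 69.4 CPM ± 95.7 (SD, n = 10), and the log2 fold change was -1.01 (SE 0.66, edgeR adjusted p = 0.384). The exact permutation test on log2(CPM + 1), which weighs each embryo's log level equally, gave a difference of -2.30 and an unadjusted p of 0.0101. By edgeR the unadjusted p was 0.139, so the answer for Cldn4 depends on the test. Whether the scale or the unequal spread of the groups made this difference was not tested.

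Cldn4 was also low in the mutants with the most oviduct markers, but not only in them. In the 4 Ehmt2Mat embryos above 300 CPM of Ovgp1 it was between 1.08 and 22.8 CPM (mean 10.0 ± 9.59, SD), and in the other 6 it was between 8.67 and 269.5 CPM (109 ± 108). Of those 6, mutants 5, 9 and 10 were also below every control, with 16.9, 34.8 and 8.67 CPM of Cldn4. Their Ovgp1 levels were 76.7, 64.3 and 9.57 CPM. Without the 5 embryos above that level, the log2 fold change of Cldn4 was -0.42 (SE 0.58, edgeR adjusted p = 0.783). Control 10, with 369 CPM of Ovgp1, had 88.4 CPM of Cldn4, within the range of the other controls. The part of the oviduct markers in the Cldn4 result was not tested further.

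Cldn7 (ENSMUSG00000018569, chr11:69964779-69967885, plus strand) had a median of 85.1 CPM in Ehmt2Cntr, between 31.9 and 330 CPM, and a median of 65.9 CPM in Ehmt2Mat embryos, between 28.9 and 136 CPM. Its highest controls were again 6 and 7, at 281 and 330 CPM, and 8 of 10 Ehmt2Mat embryos were below the Ehmt2Cntr median. The log2 fold change was -0.90 (SE 0.38, edgeR unadjusted p = 0.026, adjusted p = 0.145), and -0.89 (SE 0.49) without the embryos above 300 CPM of Ovgp1. Cldn6 (ENSMUSG00000023906, chr17:23679365-23682446, plus strand) was uneven within each group. It ran from 0.0901 to 57.7 CPM in Ehmt2Cntr embryos and was between 0.240 and 35.4 CPM in Ehmt2Mat, with 1 embryo of each group below 3 counts. The group medians were 12.8 and 15.8 CPM, and the log2 fold change of 0.17 (SE 0.78, edgeR adjusted p = 0.931) was far within its error.

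F11r (ENSMUSG00000038235, chr1:171437535-171464603, plus strand), the adhesion molecule that is among the first proteins at the forming junction, had the highest level per length of exon in Ehmt2Mat embryos too, 192 RPKM on average. On the CPM scale it had a median of 312 CPM in Ehmt2Cntr, between 131 and 573 CPM, and a median of 412 CPM in Ehmt2Mat embryos, between 325 and 1006 CPM. All 10 Ehmt2Mat embryos were above the Ehmt2Cntr median, 6 of 9 Ehmt2Cntr embryos were below every Ehmt2Mat embryo, and 3 Ehmt2Mat embryos were above every Ehmt2Cntr embryo. The mean was 324 CPM ± 125 (SD, n = 9) against 511 CPM ± 211 (SD, n = 10), and the log2 fold change was 0.66 (SE 0.24, edgeR unadjusted p = 0.0122, adjusted p = 0.0882). The exact permutation test gave a difference of 0.67 and p = 0.015. F11r was past the threshold in DESeq2 (adjusted p = 0.0484), which called 16.0% of all genes, and with at least 10 counts required in every embryo (edgeR adjusted p = 0.0499), when 19.2% were called. It was also past it without control 1, which had the highest level of its group (edgeR adjusted p = 0.0344). Without the embryos above 300 CPM of Ovgp1 its log2 fold change was 0.59 (SE 0.27, edgeR adjusted p = 0.25).

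Both plaque proteins had negative fold changes that did not pass the test. Tjp1 (ENSMUSG00000030516, chr7:65296165-65371239, minus strand), the scaffold that binds occludin and claudins, had a median of 61.3 CPM in Ehmt2Cntr, between 31.1 and 222 CPM, and a median of 42.9 CPM in Ehmt2Mat embryos, between 21.7 and 132 CPM. Controls 8, 9 and 10 were its highest, at 222, 187 and 132 CPM, and mutant 8 equalled control 10. The log2 fold change was -0.72 (SE 0.39, edgeR adjusted p = 0.276). Cgn (ENSMUSG00000068876, chr3:94760069-94786492, minus strand) had a median of 17.5 CPM in Ehmt2Cntr, between 1.44 and 35.0 CPM, and a median of 12.4 CPM in Ehmt2Mat embryos, between 4.43 and 18.2 CPM. Of the Ehmt2Cntr embryos, 4 were above every Ehmt2Mat embryo and 2 (controls 1 and 5) were below them all, and the log2 fold change was -0.66 (SE 0.47, edgeR adjusted p = 0.443). The 4 Ehmt2Mat embryos above 300 CPM of Ovgp1 had the lowest Cgn of their group, 5.89 CPM ± 1.53 (SD) against 14.1 CPM ± 2.25 in the other 6, and the log2 fold change without the 5 embryos above that level was -0.32 (SE 0.57).

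Atp1b1 (ENSMUSG00000026576, chr1:164437109-164458355, minus strand), the beta subunit of the sodium pump, had a median of 16.3 CPM in Ehmt2Cntr, between 2.35 and 58.1 CPM. In Ehmt2Mat embryos the median was 25.8 CPM, between 11.1 and 86.8 CPM. The groups overlapped over most of their ranges, and the log2 fold change was 0.38 (SE 0.48, edgeR adjusted p = 0.707). The 4 Ehmt2Mat embryos above 300 CPM of Ovgp1 had 44.8 CPM ± 29.3 (SD) and the other 6 had 22.2 CPM ± 11.8. The value itself is uncertain, since 575 bases of the last exon of Atp1b1 (chr1:164437109-164438539, 1431 bases) are also exon of Nme7 on the opposite strand, 40.2% of that exon and 18.7% of all exon bases of the gene. Counting was not by strand, a read in the shared bases was counted for both genes, and the library is biased to 3′ ends. Nme7 was also the gene whose level followed Atp1b1 most closely among 11753 others (Pearson r = 0.86 over 19 embryos, after removing group means). The other 7 members share no exon base with another gene of the annotation.

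**Figure D4:**
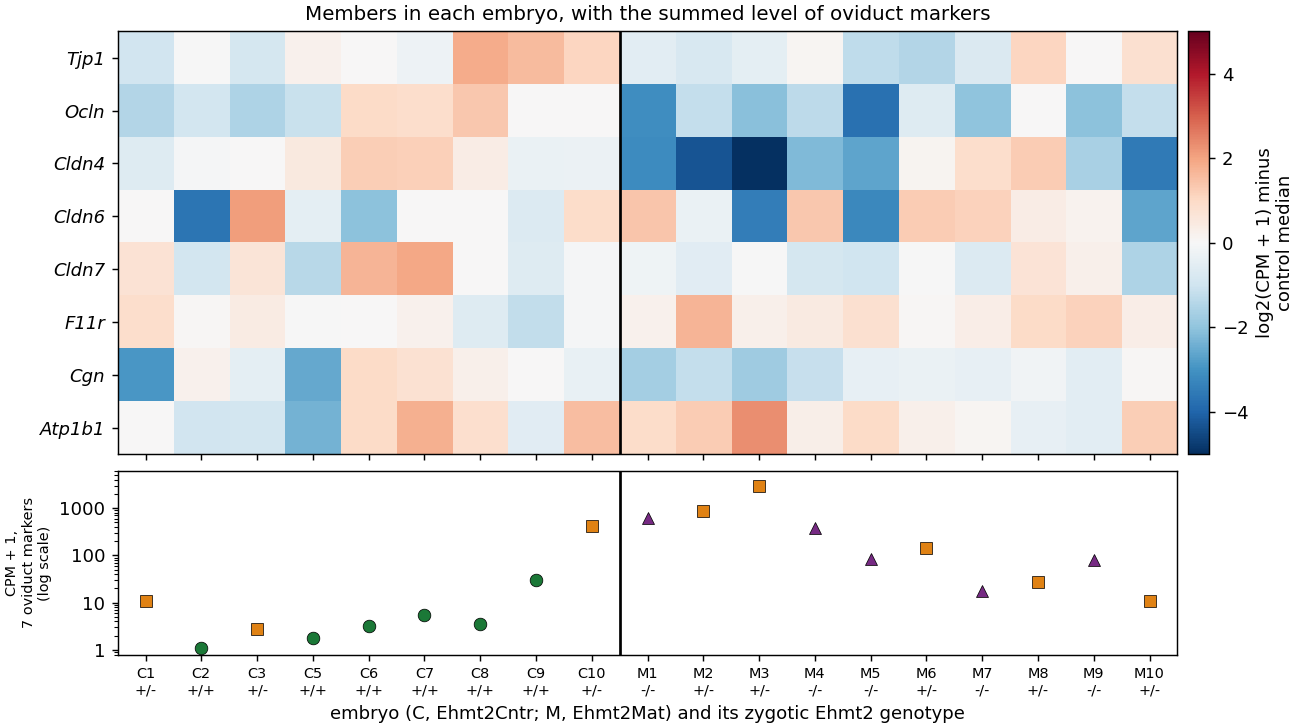
The 8 genes in each embryo as log2(CPM + 1) minus the median of the Ehmt2Cntr embryos, with the summed level of 7 oviduct markers (CPM + 1, log axis) below. Ehmt2Mat embryos 1 to 4, with the highest marker levels, all have low Cldn4 and Cgn. Cldn4 is also low in Ehmt2Mat embryos 5, 9 and 10. Ocln is highest in controls 6 to 8, and no embryo is low in all 8 genes.

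The 8 genes did not move as a block between embryos. Over the 28 pairs of members, the Pearson correlation of log2 CPM deviations from the group means over the 19 embryos had a median of 0.22, from -0.45 for Tjp1 and F11r to 0.54 for Tjp1 with Ocln and for Ocln with Cgn. All points share the library of their embryo, and these values are a description. The genes most like each member by the same measure, chosen among 11753, were Capza1 (0.84) and Egln3 (0.76) for Ocln, Lmo7 (0.84) and Asb16 (0.83) for Cldn4, Clcn6 (0.82) and Vps26c (0.81) for Cldn6, and Rps6ka1 (0.83) and Tcirg1 (0.82) for Cldn7. They were Imp4 (0.80) for F11r, Tmem30a (0.85) and Nr1d2 (0.83) for Tjp1, Slc35a1 (0.89) and Ttc17 (0.87) for Cgn, and Nme7 (0.86) and Umad1 (0.84) for Atp1b1. No member was among the most like genes of another member.

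The wider pathway was read in 5 lists of other genes, chosen with earlier results of these data known. Of 104 listed genes, 55 passed the filter on low counts and 10 passed the test, 3 higher and 7 lower in Ehmt2Mat embryos, with a median log2 fold change of -0.18 over the 55. Over all genes tested 9.35% were called, 4.37% as higher and 4.98% as lower. Without the embryos above 300 CPM of Ovgp1, 5 of these 10 remained past the test (Afdn, Aqp3, Aqp9, Klf5 and Tfap2c) and no other listed gene was added, when 3.98% of all genes were called. No listed gene passed when only +/- embryos were compared, with the number of zygotic copies as a covariate, without the 8 embryos above 50 CPM of Ovgp1, or with the Ovgp1 level as a covariate. Those fits called 0.00746%, 0.0255%, 0.0771% and 0.17% of all genes tested.

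Other tight junction membrane genes, further claudins, tricellulin and JAM genes, gave 13 tested of 29 and 0 past the test, with 0 at an unadjusted p under 0.05. Their median log2 fold change was 0.19. Cxadr, an adhesion molecule of the junction, had 122 CPM ± 58.2 (SD, n = 9) in Ehmt2Cntr embryos and 139 CPM ± 50.4 (SD, n = 10) in Ehmt2Mat, a log2 fold change of 0.19 (SE 0.3). Cldn3, singled out after its values were seen, had a mean of 23.2 CPM ± 50.2 (SD, n = 10) in Ehmt2Mat against 4.12 CPM ± 10.5 (SD, n = 9) in Ehmt2Cntr embryos (log2 fold change 2.48, SE 1.28, edgeR adjusted p = 0.245), and DESeq2 called it (adjusted p = 0.0305). Its highest levels were in the embryos with the oviduct markers, 31.9 CPM in control 10 and 165 CPM in mutant 3.

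In the list of plaque proteins, 12 of 15 were tested and 2 fell, with none higher and a median log2 fold change of -0.53. Afdn (afadin), which links nectins and actin, had 76.0 CPM ± 29.2 (SD, n = 9) in Ehmt2Cntr embryos against 31.7 CPM ± 8.82 (SD, n = 10) in Ehmt2Mat, a fall by 1.26 on the log2 scale (SE 0.24, edgeR adjusted p = 0.00237). Ybx3 (ZONAB), a Y-box protein that binds Tjp1 at the junction, fell by 0.94 (SE 0.22, edgeR adjusted p = 0.00783), with 9 of 10 Ehmt2Mat embryos below every Ehmt2Cntr embryo. Its level in the 4 Ehmt2Mat embryos above 300 CPM of Ovgp1 was 197 CPM ± 38.6 (SD) and in the other 6 it was 438 CPM ± 78.4.

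Among genes of fluid transport into the cavity, 11 of 32 were tested, 1 rose and 2 fell. Aqp3, a water and glycerol channel, was between 2.68 and 28.2 CPM in Ehmt2Cntr embryos, with a median of 5.94 CPM. In Ehmt2Mat embryos it was between 0 and 3.88 CPM, with a median of 0.244 CPM. Of the 10 Ehmt2Mat embryos, 9 were below every Ehmt2Cntr embryo and 3 had fewer than 3 counts, 1 of them none, and Aqp3 fell by 3.19 on the log2 scale (SE 0.84, edgeR adjusted p = 0.0181). With the log2 total count as a covariate the fall of Aqp3 was no longer past the threshold, at -2.96 (SE 0.99, edgeR adjusted p = 0.0643). Aqp9, a channel for water and small solutes, rose, being at 183 CPM ± 71.6 (SD, n = 9) in Ehmt2Cntr embryos and at 362 CPM ± 95.6 (SD, n = 10) in Ehmt2Mat, with 7 of 10 Ehmt2Mat embryos above every Ehmt2Cntr embryo (log2 fold change 0.98, SE 0.22, edgeR adjusted p = 0.00637). Slc12a2, the Na-K-Cl cotransporter, fell by 0.87 (SE 0.24, edgeR adjusted p = 0.0219), and its adjusted p was 0.0555 without control 8 and 0.057 with the log2 total count as a covariate. Atp1b3, another beta subunit of the pump, did not pass the test. It had 348 CPM ± 125 (SD, n = 9) against 319 CPM ± 108 (SD, n = 10), a difference of -0.13 on the log2 scale (SE 0.23).

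Among desmosome and keratin genes, which strengthen the same epithelium, 9 of 14 were tested and 1 fell. Perp, a desmosomal membrane protein, fell by 2.68 on the log2 scale (SE 0.79, edgeR adjusted p = 0.0321). Its highest controls were 6 and 7, at 68.2 and 106 CPM, and its adjusted p was 0.0669 without the former and 0.108 without the latter. It was between 0.0505 and 0.0542 without mutant 2, 4 or 7. Among +/- embryos alone the log2 fold change of Perp was -1.13 (SE 1.16), and with the number of zygotic copies as a covariate it was -1.28 (SE 1.28).

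Of 14 regulators of trophectoderm and epithelial genes, 10 were tested, 2 rose and 2 fell. Over all genes tested 4.37% were called as higher and 4.98% as lower. The genes that rose, Tfap2c and Tead4, had already been reported as increased by the study of these embryos, so their calls are no independent result. Tfap2c rose by 0.75 (SE 0.20, edgeR adjusted p = 0.0183) and Tead4, the TEAD factor of the early trophectoderm, rose by 0.90 (SE 0.19, edgeR adjusted p = 0.0046), with 8 of 10 Ehmt2Mat embryos above every Ehmt2Cntr embryo. Klf5, a Krüppel-like factor, ranged from 155 to 365 CPM in Ehmt2Cntr embryos. In Ehmt2Mat its range was 36.9 to 129 CPM. The groups of Klf5 did not overlap, which was so for 0.519% of the genes tested, and it fell by 1.49 on the log2 scale (SE 0.23, edgeR adjusted p = 0.000486). Among +/- embryos alone its log2 fold change was -1.52 (SE 0.36), close to the value over all embryos, with an edgeR adjusted p of 0.607. Elf3, an epithelial ETS factor, fell by 1.59 (SE 0.47, edgeR adjusted p = 0.0329), with its highest level, 128 CPM, in control 7, and an adjusted p of 0.125 without that embryo. Among +/- embryos alone the log2 fold change of Elf3 was -0.32 (SE 0.67), and with the number of zygotic copies as a covariate it was -0.38 (SE 0.71). Its adjusted p was between 0.0512 and 0.0561 without control 6 or mutant 1, 2, 5 or 6.

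**Figure D5:**
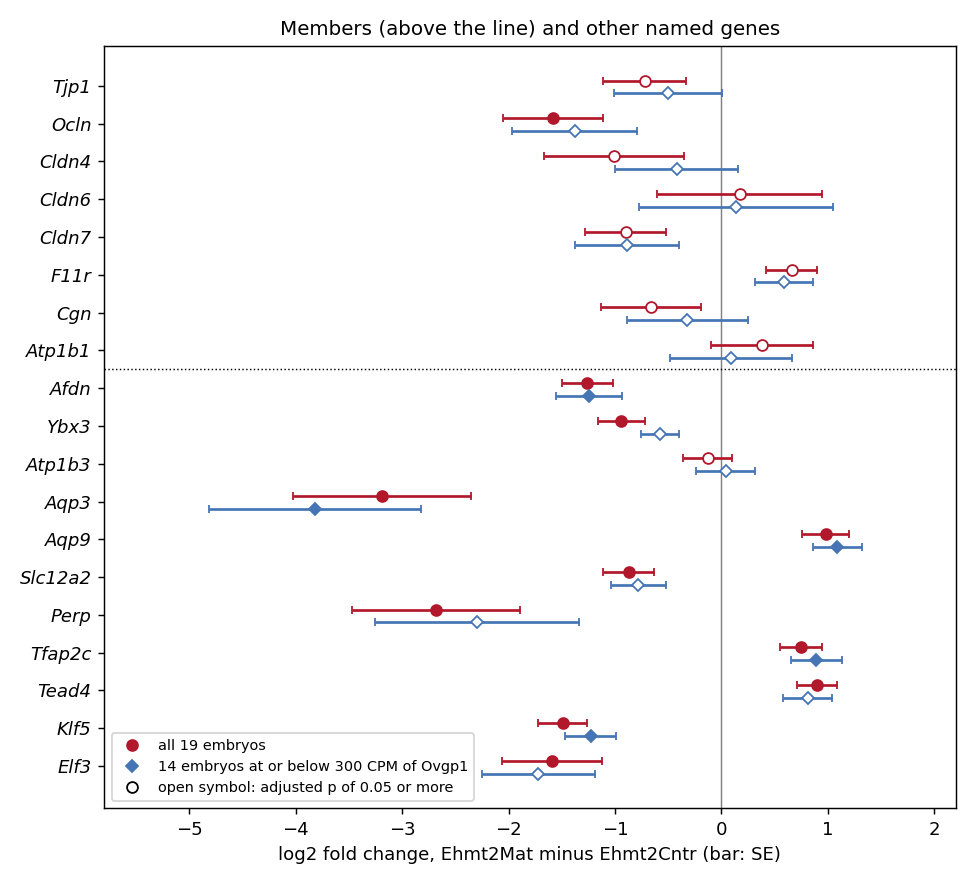
Log2 fold change, Ehmt2Mat minus Ehmt2Cntr, with its SE, for the 8 genes (above the dotted line) and the named genes of the wider pathway. Circles use all 19 embryos and diamonds the 14 at or below 300 CPM of Ovgp1, and filled symbols have an adjusted p under 0.05. With all embryos 1 of the 8 genes (Ocln) and 10 of the others are filled, and with 14 embryos none and 5.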

How the data were processed

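The values the authors deposited are unnormalized read counts on the exons of 34937 Ensembl genes (release 82, GRCm38) in 19 embryos. Per the file headers, featureCounts 1.5.0 counted without strand, with a minimum overlap of 10 bases, each read for every gene it overlapped, and multi-mapping reads kept. The submitters' processing notes name TopHat2. Libraries were single-end 50 bp from 3′-biased amplified cDNA. Control embryo 4 was not analysed here. Symbols came from GENCODE vM21 on the same build (34599 IDs matched).

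Counts were filtered by edgeR's rule on low counts, scaled by TMM and tested by quasi-likelihood without covariates (edgeR 4.0.16, R 4.3.3), and p-values were adjusted over all genes tested (Benjamini-Hochberg, threshold 0.05). CPM and RPKM used TMM-scaled libraries. Fold changes of single genes were also compared by exact permutation on log2(CPM + 1). DESeq2 1.42.0, other normalizations and filters, covariates, the embryo number as a replicate block and each embryo left out were alternatives, and those on Ovgp1 and on zygotic copies were added after seeing the data. Named genes were the members, fixed genes (Atp1b3, Aqp3, Aqp9, Tfap2c and Tead4), up to 4 called genes per list and direction, the 2 genes most like each member, and Ehmt2, and some genes of this rule are not reported here. The members and lists were chosen with earlier results of these data known. Scripts were tested on simulated counts. The log2 total count was a covariate in an alternative fit, and other effects of depth were not tested. Promoter sequences are from RefSeq (GRCm38.p6).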

Additional observations from a re-analysis of the deposited data

How the results depend on the processing

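Of the 8 genes, 1 passed the test between the maternal groups. This count was 2 (Ocln and F11r) in DESeq2 and also when every embryo needed 10 counts or more, and 0 with the log2 total count as a covariate, with +/- embryos only, with zygotic copies as a covariate, without the embryos above 300 or above 50 CPM of Ovgp1, and with the Ovgp1 level as a covariate. With 1 embryo left out it was between 0 and 2. RLE and upper-quartile normalization and no filter on low counts left it at 1. The numbers of the embryos are not stated to pair them. Pearson r of deviations between embryos of the same number was from -0.156 to 0.0856 over 9 pairs. Of 9 controls, 0 were most like the mutant of the same number. Whether embryos of the same number shared a batch was not tested. The replicate block gave 2 members, Ocln and Cldn4 (edgeR adjusted p = 0.0136 and 0.0409). It lost Slc12a2 (adjusted p = 0.0808), Tfap2c (0.0822) and Elf3 (0.102) among the listed genes. The count of listed genes, 10, was 5 without the embryos above 300 CPM of Ovgp1, and 0 without those above 50 CPM, with the Ovgp1 level as a covariate, with +/- embryos only and with zygotic copies as a covariate. Over all genes tested, 1099 calls became 1775 with DESeq2, 693 with the replicate block, 465, 10 and 20 with the 3 settings on Ovgp1, 1 with +/- embryos only and 3 with zygotic copies. These restricted fits hold fewer embryos or a covariate that differs between the groups, and the cause of the lower counts was not tested.

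The log2 fold change changed sign for Tjp1 (0.04 with +/- embryos only, 0.04 with zygotic copies and 0.03 without embryos above 50 CPM of Ovgp1), Cldn4 (0.14 without those embryos), Cldn6 (-1.42 with +/- embryos only and -1.26 with zygotic copies, and between -0.0039 and 0.76 with 1 embryo left out), Cgn (0.35 and 0.20 in the same order) and Atp1b1 (-0.44 with the Ovgp1 level as a covariate). It did so for Atp1b3 (0.04, 0.01 and 0.11 with the 3 settings on Ovgp1). None of these values passed the test. The permutation difference of Cldn6 was -0.0042 with a pseudocount of 0.1 and between -0.37 and 0.38 with 1 embryo left out, and the other 7 members kept their sign and their side of 0.05 in all 22 alternatives of that test. Those alternatives were other pseudocounts, library totals without TMM and single embryos left out. The permutation test was not run without the embryos above an Ovgp1 limit, with +/- embryos only or with a covariate. No member passed in either comparison of zygotic genotypes under any alternative.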
